A study of Homo sapiens with 10 samples.

Results

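Expression of 45 genes of actin filaments and focal adhesions was followed in MIA PaCa-2 cells, an established human line from a pancreatic ductal adenocarcinoma, after exposure to hydroxyprogesterone caproate (HPC), a synthetic progestin. The genes were taken by symbol from the table the authors deposited, in which all 45 were found among 16734 genes, and they were chosen by known function: actins, filament crosslinkers, non-muscle myosin II, tropomyosins and other side-binding proteins, adhesion proteins, membrane linkers, nucleation and capping proteins, the monomer pool, and the coactivators of the myocardin-related transcription factor family (MRTF). The HPC group was 5 libraries of cells given 10 µM HPC for 24 h, and the DMSO group was 5 libraries of cells given an equal volume of the solvent for the same time. All cells came from this single line and were kept in medium with serum, antibiotics included, and no genotype differed between the groups. The labels call the libraries biological replicates without naming a culture day or batch, so each test measures the spread between these libraries.

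Actin cycles between monomers (G-actin) and filaments (F-actin), and the proteins encoded here nucleate, cap, bundle, pull on and anchor those filaments. At focal adhesions, talin and vinculin couple filaments to integrins, which bind the extracellular matrix, and LIM-domain proteins such as zyxin and paxillin assemble around them. G-actin binds MRTF-A and MRTF-B and holds them in the cytoplasm. When filaments form, the freed MRTF proteins enter the nucleus and activate serum response factor (SRF), which binds the CArG box and drives many actin and adhesion genes.

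Reads recovered from the deposited FPKM values (fragments per kilobase, relative to library size) summed to between 65851927 and 74477678 per library in HPC and to between 71603127 and 82219086 in DMSO. Of the 45 genes, 40 reached 1 FPKM in at least 5 libraries and were tested with limma on log2(FPKM + 0.1) among 9150 genes, with Benjamini-Hochberg adjustment at 0.05. The other 5, FLNC, TPM1, CNN3, TAGLN and MRTFA, were below that level and were read from limma's voom test on the recovered reads, which called 81.2% of its 13581 genes and 37 of the 45. MRTFB passed the filter only through its DMSO libraries, so its place among the lower genes was fixed by the filter. The median coefficient of variation of the 40 genes was 2.54% in HPC and 2.38% in DMSO. Epithelial keratins were read beside the label and differed. KRT8 averaged 57.7 FPKM in HPC and 51.8 FPKM in DMSO, and KRT18 150 FPKM in HPC and 114 FPKM in DMSO. KRT19 averaged 10.1 FPKM in HPC and 24.0 FPKM in DMSO, and KRT7 only 0.035 FPKM in HPC and 0.226 FPKM in DMSO. The epithelial markers EPCAM and CDH1 had at most 1 and 13 reads in any library. These levels do not identify the line.

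Actin filament genes were more often lower than higher in HPC. Of the 40 tested, 25 fell, 10 rose and 5 did not pass, and without MRTFB 24 of 39 fell. The share called in either direction, 87.5%, was close to the 87.7% called over all genes tested. The lower share was 62.5%, against 44.8% of all genes tested, and the higher share was 25.0%, against 42.9%. With a fold change of at least 1.5 as well, 15 genes, MRTFB among them, fell (37.5%, against 20.3% of all genes) and 4 rose (10.0%, against 16.9%). The median log2 fold change (HPC minus DMSO throughout) was -0.30 for these genes and -0.01 for all genes tested. For 35 of the 40 (87.5%), MRTFB among them, the ranges of the HPC and DMSO libraries were apart, which was so for 79.6% of all genes tested.

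As a share of all recovered reads, the 45 genes together held 1.78% ± 0.027 in HPC and 2.50% ± 0.029 in DMSO (SD, n = 5 each), and no HPC library (1.75% to 1.81%) reached the DMSO range (2.47% to 2.54%). The actins made the largest part of that gap, at 0.461% ± 0.018 in HPC and 0.934% ± 0.022 in DMSO. The monomer pool held 0.453% in HPC and 0.611% in DMSO, and crosslinkers held 0.105% in HPC and 0.197% in DMSO. Membrane linkers went the other way, at 0.223% in HPC and 0.112% in DMSO. Shares of a library cannot tell apart less of a transcript in each cell and more of all others.

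Library scaling bears on the smaller differences. Genes of the mitochondrial genome held 13.8% to 15.9% of the FPKM in HPC and 21.9% to 23.8% in DMSO, but 1.56% to 1.82% of the recovered reads in HPC and 2.25% to 2.51% in DMSO. Rescaling each library to the same FPKM sum outside those genes moved the median of all genes tested to -0.19. Under it 37 of the 40 genes were called, as were 87.2% of all genes tested. Of the 40, 30 were lower and 7 higher, while 55.3% of all genes tested were lower and 31.9% higher. With libraries set instead to equal numbers of reads outside mitochondrial genes, the median of all genes was -0.02. Of the 40 genes, 36 were then called, 26 lower and 10 higher, beside 8004 of all 9150 genes tested. The calls over all genes were not split by direction for that scaling.

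**Figure D1:**
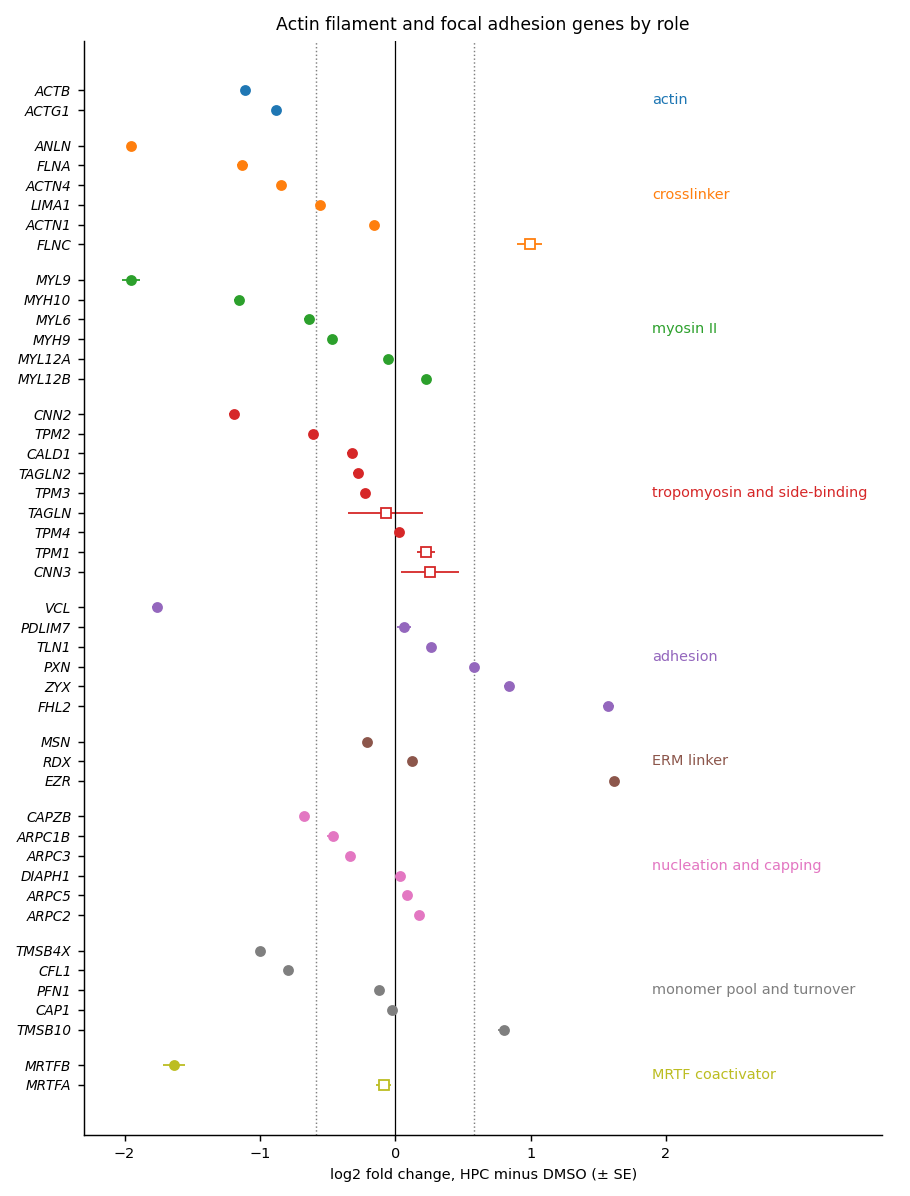
Log2 fold change (HPC minus DMSO, x axis, ± SE) of each of the 45 genes, grouped by role down the page. Filled circles are limma values, open squares the voom values of the 5 genes below the filter, and dotted lines mark 1.5-fold in either direction. Crosslinkers and actins lie left of 0 except FLNC, and 4 of 6 adhesion genes were called to the right of it, beside 42.9% of all genes tested.

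Promoters are shown because SRF acts on several of these genes through the CArG box. RefSeq promoters (GRCh38.p14, 250 bases before to 50 after a start) were matched for 41 of the 45 genes, all but ACTB, ARPC1B, MYL9 and TAGLN. The CArG box was searched on both strands, and it was found in 6 genes, ACTG1, ACTN1, CNN2, FHL2, FLNA and TPM4, or 14.6% of the 41. Among the other genes in the table with such a promoter, 208 of 12978 (1.6%) held a match. The match stands at 94 bases before the start in ACTG1 and FLNA, at 89 in CNN2 and at 85 in the start of FHL2 printed here, 1 of 4 FHL2 starts, of which 3 had a match. The 150 bases before each start are printed below, 5′ to 3′ on the gene's strand, with the match in capitals: ACTG1 at chr17:81512800-81512949 (minus strand), CNN2 at chr19:1026458-1026607 (plus strand), FHL2 at chr2:105438530-105438679 (minus strand) and FLNA at chrX:154374635-154374784 (minus strand).
ACTG1: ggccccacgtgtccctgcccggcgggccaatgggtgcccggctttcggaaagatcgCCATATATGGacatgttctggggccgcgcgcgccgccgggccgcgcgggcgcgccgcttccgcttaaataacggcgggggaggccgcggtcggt
CNN2: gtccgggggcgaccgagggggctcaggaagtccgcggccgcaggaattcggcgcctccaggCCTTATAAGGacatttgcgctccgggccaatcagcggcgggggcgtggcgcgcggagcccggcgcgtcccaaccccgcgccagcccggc
FHL2: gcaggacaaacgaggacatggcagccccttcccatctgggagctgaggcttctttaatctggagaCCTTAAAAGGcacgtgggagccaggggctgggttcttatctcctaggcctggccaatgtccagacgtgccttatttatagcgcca
FLNA: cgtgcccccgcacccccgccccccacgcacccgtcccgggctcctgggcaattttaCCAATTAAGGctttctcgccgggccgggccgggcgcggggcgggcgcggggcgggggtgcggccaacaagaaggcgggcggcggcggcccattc
Genes with a match did not move in a single direction. Of the 6, ACTG1, ACTN1, CNN2 and FLNA fell, FHL2 rose and TPM4 did not pass, with a median log2 fold change of -0.52 and a range of -1.19 to 1.58. Of the 35 without a match, 31 were tested, and 18 fell, MRTFB among them, 9 rose and 4 did not pass, with a median of -0.22. Over all genes tested, 44.8% fell and 42.9% rose, with a median of -0.01. A match is a description of these letters and not a bound site, and no match says only that the letters are not in these windows.

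Both cytoplasmic actins fell. ACTB, beta actin (chromosome 7, 5527147 to 5563784 in GENCODE 29 on GRCh38), had 139, 140, 148, 158 and 150 FPKM in HPC, against 331, 313, 321, 309 and 307 FPKM in DMSO. The highest HPC library of ACTB lay far below its lowest DMSO library, and its log2 fold change was -1.11 ± 0.035 (SE, adjusted p = 3.38e-12). ACTG1, gamma actin (chromosome 17, 81509971 to 81523847), had 77.6, 76.9, 76.6, 81.3 and 78.6 FPKM in HPC, against 146, 148, 143, 142 and 142 FPKM in DMSO. The groups did not overlap, and its log2 fold change was -0.88 ± 0.022 (adjusted p = 4e-13). Per kilobase of merged exons, the ratio of ACTB to ACTG1 was 1.21 ± 0.044 in HPC and 1.41 ± 0.038 in DMSO (SD, n = 5 each; difference -0.22 on the log2 scale, exact permutation p = 0.00794, adjusted p = 0.00882), so the fall of ACTB was larger than that of ACTG1.

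All 5 tested crosslinkers fell, 3 of them by at least 1.5-fold, with a median log2 fold change of -0.84. Of all genes tested, 44.8% fell and 20.3% fell by at least 1.5-fold. ACTN4, alpha-actinin 4, which bundles filaments, had 14.4, 14.2, 14.7, 14.6 and 14.5 FPKM in HPC, against 26.3, 25.1, 26.7, 25.9 and 26.0 FPKM in DMSO. Its libraries were tight within each group, and its log2 fold change was -0.84 ± 0.022 (adjusted p = 6.95e-13). ACTN1, alpha-actinin 1, also at adhesions and stress fibres, fell by 0.16 (adjusted p = 0.000175), so that the ACTN1 to ACTN4 ratio was 0.601 ± 0.013 in HPC and 0.373 ± 0.016 in DMSO. FLNA, filamin A, which crosslinks filaments into networks, averaged 4.96 ± 0.31 FPKM in HPC and 10.9 ± 0.19 FPKM in DMSO (log2 fold change -1.13, adjusted p = 8.86e-12). FLNC, the muscle-enriched filamin, was low, at 0.696 ± 0.075 FPKM in HPC and 0.347 ± 0.017 FPKM in DMSO, and rose in the voom test (log2 fold change 0.99, adjusted p = 3.04e-09), where 37.5% of all genes tested rose. The 2 filamins thus moved in opposite directions: FLNC stood at 0.049 of FLNA in HPC and at 0.011 in DMSO per kilobase of merged exons. LIMA1, which stabilizes filament bundles, fell by 0.55.

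ANLN, anillin, which bundles actin and myosin at the cleavage furrow (chromosome 7, 36389806 to 36453791), had 5.12, 4.94, 5.21, 4.95 and 5.02 FPKM in HPC, against 21.3, 18.7, 19.3, 19.6 and 20.0 FPKM in DMSO. The groups lay far apart, and its log2 fold change was -1.95 ± 0.034 (adjusted p = 1.65e-14). Genes of cytokinesis outside these 45, a list chosen with earlier results of these data known, moved with it. Leaving out CIT, which passed the filter only through DMSO, 15 of 15 fell, 12 of them by at least 1.5-fold. Their median log2 fold change was -1.19. Of all genes tested, 44.8% fell and 20.3% fell by at least 1.5-fold. The largest fall in the list was that of KIF20A, a kinesin of the central spindle, at 2.26 ± 0.12 FPKM in HPC and 12.7 ± 0.45 FPKM in DMSO (log2 fold change -2.45, adjusted p = 8.41e-15). The part of cytokinesis genes in the difference of ANLN was not tested.

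Of 6 genes of non-muscle myosin II, 4 fell, 1 rose and 1 did not pass, beside 44.8% of all genes tested that fell and 42.9% that rose. MYH9, the heavy chain IIA, had 41.5, 41.9, 40.9, 42.7 and 41.9 FPKM in HPC, against 57.1, 58.0, 56.6, 58.0 and 58.9 FPKM in DMSO, with a log2 fold change of -0.47 ± 0.020 (adjusted p = 7.49e-11). MYH10, the heavy chain IIB, averaged 5.50 ± 0.30 FPKM in HPC and 12.3 ± 0.25 FPKM in DMSO (log2 fold change -1.15, adjusted p = 3.47e-12). IIB fell more than IIA: the MYH10 to MYH9 ratio was 0.274 ± 0.014 in HPC and 0.445 ± 0.006 in DMSO (exact permutation p = 0.00794, adjusted p = 0.00882).

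Light chains differed among themselves. MYL9, a regulatory light chain best known from smooth muscle (chromosome 20, 36541484 to 36551447), had 2.87, 3.36, 3.50, 4.00 and 3.66 FPKM in HPC, against 13.3, 13.6, 14.1, 13.9 and 13.6 FPKM in DMSO. No HPC library came near the DMSO range, and its log2 fold change was -1.96 ± 0.066 (adjusted p = 1.24e-11). MYL12B, a non-muscle regulatory light chain, had 50.2, 49.4, 50.6, 51.2 and 49.2 FPKM in HPC, against 43.4, 43.9, 41.2, 42.6 and 43.0 FPKM in DMSO, a rise of 0.23 ± 0.022 on the log2 scale (adjusted p = 4.28e-07) that shrank to 0.060 with the FPKM sum outside mitochondrial genes and 0.091 with quantile normalization. MYL12A, the neighbouring gene on chromosome 18 for a nearly identical chain (no 100-base window of either transcript set occurs in another gene), averaged 30.5 ± 0.75 FPKM in HPC and 31.6 ± 0.83 FPKM in DMSO and missed the threshold (log2 fold change -0.05, adjusted p = 0.0664). It passed as lower without HPC replicate 4 and under 4 other scalings. MYL6, the essential light chain, fell by 0.64. Relative to MYL12A per kilobase of merged exons, MYL9 stood at 0.056 ± 0.007 in HPC and at 0.214 ± 0.009 in DMSO, and MYL12B at 1.74 ± 0.018 in HPC and 1.43 ± 0.028 in DMSO.

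Of the 6 tested tropomyosins and side-binding proteins, 5 fell and 1 did not pass, beside 44.8% of all genes tested that fell. CNN2, calponin 2, which binds filaments and restrains myosin, had 4.17, 3.87, 4.14, 4.58 and 4.31 FPKM in HPC, against 9.90, 9.57, 9.76, 9.92 and 9.64 FPKM in DMSO, with a log2 fold change of -1.19 ± 0.039 (adjusted p = 4.98e-12). TAGLN2, transgelin 2, the most abundant of them by FPKM, had 26.5, 28.1, 24.8, 25.1 and 26.2 FPKM in HPC, against 32.1, 32.3, 31.6, 30.7 and 31.5 FPKM in DMSO, a smaller fall without overlap (log2 fold change -0.28 ± 0.032, adjusted p = 2.44e-06). CALD1, caldesmon, fell by 0.32.

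Tropomyosins, the coiled coils that lie along filaments and set which proteins reach them, shifted in proportion. TPM2 fell by 0.61 and TPM3 by 0.22, while TPM4 had 10.6, 10.1, 10.1, 10.7 and 10.3 FPKM in HPC, against 10.5, 10.4, 10.2, 10.0 and 10.0 FPKM in DMSO. The TPM4 groups overlapped, and it did not pass (log2 fold change 0.03, adjusted p = 0.358, or -0.14 with the FPKM sum outside mitochondrial genes). TPM1, at 0.257 ± 0.009 FPKM in HPC and 0.220 ± 0.011 FPKM in DMSO, was low and rose slightly in the voom test (log2 fold change 0.23, adjusted p = 0.00308). Relative to TPM3 per kilobase of merged exons, TPM2 stood at 0.633 ± 0.020 in HPC and 0.829 ± 0.022 in DMSO, and TPM4 at 0.991 ± 0.027 in HPC and 0.833 ± 0.010 in DMSO. CNN3 and TAGLN, at most 200 and 489 reads in any library, did not pass the voom test (adjusted p = 0.276 and 0.827).

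**Figure D2:**
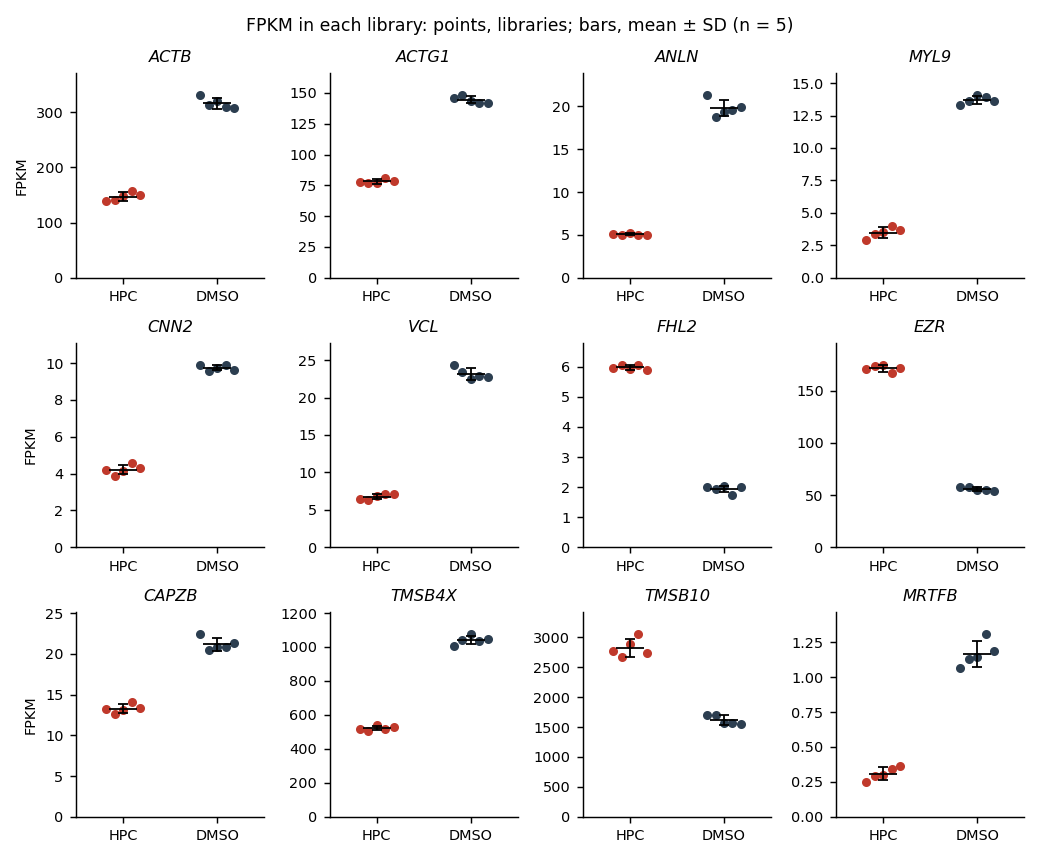
FPKM in each library for 12 genes, with HPC libraries left of DMSO libraries in each panel. Points are libraries and bars the mean ± SD of 5, and every y axis starts at 0. In each of the 12 panels the 2 groups do not overlap, with FHL2, EZR and TMSB10 higher in HPC and the others lower.

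Adhesion genes split: 4 of 6 rose, 1 fell and 1 did not pass, beside 42.9% of all genes tested that rose and 44.8% that fell. FHL2, a LIM-domain adaptor that shuttles between adhesions and the nucleus (chromosome 2, 105357712 to 105438513), had 5.96, 6.07, 5.93, 6.05 and 5.89 FPKM in HPC, against 1.99, 1.95, 2.02, 1.75 and 2.00 FPKM in DMSO. Its HPC libraries lay within a narrow band at about 3 times the DMSO level, with a log2 fold change of 1.58 ± 0.039 (adjusted p = 3.34e-13). ZYX, zyxin, which recruits repair and elongation factors to strained filaments, averaged 19.8 ± 0.55 FPKM in HPC and 11 ± 0.41 FPKM in DMSO (log2 fold change 0.84, adjusted p = 1.35e-11). PXN, paxillin, a scaffold for adhesion signalling, rose by 0.58, a fold of 1.495, just under the 1.5-fold line.

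VCL, vinculin, which reinforces the link between talin and actin (chromosome 10, 73995193 to 74121363), went the other way, with 6.50, 6.34, 6.89, 7.07 and 7.07 FPKM in HPC, against 24.4, 23.4, 22.5, 22.8 and 22.7 FPKM in DMSO. Its log2 fold change was -1.76 ± 0.036 (adjusted p = 6.3e-14), the lowest among the 6 adhesion genes. TLN1, talin 1, its partner at integrins, had 21.8, 22.8, 21.3, 21.1 and 21.9 FPKM in HPC, against 18.2, 18, 18.3, 17.6 and 18.5 FPKM in DMSO, a rise of 0.26 ± 0.026 (adjusted p = 3.76e-07) that shrank to 0.097 with the FPKM sum outside mitochondrial genes. Within each library, vinculin stood at 0.563 ± 0.041 of talin 1 in HPC and at 2.31 ± 0.089 in DMSO per kilobase of merged exons (difference -2.04 on the log2 scale, exact permutation p = 0.00794, adjusted p = 0.00882). PDLIM7, a PDZ and LIM protein on filaments, averaged 3.23 ± 0.18 FPKM in HPC and 3.09 ± 0.20 FPKM in DMSO and did not pass (adjusted p = 0.238).

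Ezrin, radixin and moesin (ERM) tie filaments to the plasma membrane. EZR, ezrin, the form of epithelial microvilli (chromosome 6, 158765741 to 158819412), had 170, 173, 175, 167 and 172 FPKM in HPC, against 58.1, 57.8, 55.1, 54.8 and 53.9 FPKM in DMSO. Every HPC library was far above the DMSO range, with a log2 fold change of 1.62 ± 0.025 (adjusted p = 8.39e-15). On recovered reads the voom values of EZR and FHL2, the largest rises among the 40 tested genes, were both 1.62. MSN, moesin, had 46.6, 46.5, 45.9, 45.5 and 46.7 FPKM in HPC, against 54.1, 52.8, 53.7, 53.4 and 52.7 FPKM in DMSO, a small fall with no overlap (log2 fold change -0.21 ± 0.018, adjusted p = 1.63e-07). RDX, radixin, rose by 0.12 (adjusted p = 0.0024), but its log2 fold change was -0.041 with the FPKM sum outside mitochondrial genes. Ezrin stood at 8.62 ± 0.15 times moesin in HPC and at 2.44 ± 0.077 times in DMSO per kilobase of merged exons (exact permutation p = 0.00794, adjusted p = 0.00882).

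Of 6 nucleation and capping genes, 3 fell, 2 rose and 1 did not pass, beside 44.8% of all genes tested that fell and 42.9% that rose. CAPZB, the beta subunit of the protein that caps barbed ends, had 13.3, 12.6, 13.1, 14.1 and 13.3 FPKM in HPC, against 22.4, 20.4, 20.9, 20.9 and 21.3 FPKM in DMSO, with a log2 fold change of -0.67 ± 0.033 (adjusted p = 3.41e-10). It was the only one of the 6 past 1.5-fold. DIAPH1, a formin that elongates unbranched filaments, did not pass (log2 fold change 0.04, adjusted p = 0.205, or -0.13 with the FPKM sum outside mitochondrial genes).

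Subunits of the Arp2/3 complex, which starts branches, differed in direction. ARPC3 had 34.2, 33.9, 34.8, 35.3 and 35.1 FPKM in HPC, against 43.4, 44.6, 42.9, 44.4 and 43.5 FPKM in DMSO, a fall with no overlap (log2 fold change -0.34, adjusted p = 3.5e-09). ARPC2 had 19.5, 19.3, 19.9, 19.4 and 19.1 FPKM in HPC, against 17.6, 17.7, 16.6, 17.1 and 16.9 FPKM in DMSO (log2 fold change 0.17, adjusted p = 1.34e-05), and this rise shrank to 0.01 with the FPKM sum outside mitochondrial genes. ARPC5 rose by 0.09 (adjusted p = 0.00637) but was at -0.080 under that scaling. ARPC1B fell by 0.46, and its value is less certain, since 23.8% of the 100-base windows of its transcripts also occur in transcripts of another annotated gene. For the other 44 genes that share was at most 2.38%.

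Monomer-binding proteins held the most abundant transcripts. TMSB4X, thymosin beta 4, the main buffer of G-actin (chromosome X, 12975108 to 12977227), had 518, 505, 538, 517 and 528 FPKM in HPC, against 1005, 1038, 1075, 1037 and 1048 FPKM in DMSO, with a log2 fold change of -1.0 ± 0.023 (adjusted p = 1.99e-13). TMSB10, thymosin beta 10 (chromosome 2, 84905625 to 84906675), had 2763, 2663, 2880, 3051 and 2738 FPKM in HPC, against 1701, 1704, 1570, 1563 and 1550 FPKM in DMSO, a rise of 0.80 ± 0.040 (adjusted p = 3.52e-10). The 2 thymosins crossed: per kilobase of merged exons TMSB10 was 2.39 ± 0.13 times TMSB4X in HPC and 0.688 ± 0.046 times in DMSO.

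CFL1, cofilin 1, which severs old filaments, averaged 21.0 ± 0.62 FPKM in HPC and 36.5 ± 0.64 FPKM in DMSO (log2 fold change -0.79, adjusted p = 3.36e-12). PFN1, profilin 1, which feeds monomers to growing ends, fell by 0.12 (adjusted p = 0.000489). CAP1, which recycles monomers, did not pass (log2 fold change -0.02, adjusted p = 0.302), though it passed as lower with TPM rescaling (-0.052), quantile normalization (-0.094) and the FPKM sum outside mitochondrial genes (-0.19). Ratios of both to ACTB were higher in HPC: PFN1 stood at 0.349 ± 0.018 of ACTB in HPC and 0.176 ± 0.002 in DMSO, and CFL1 at 0.067 ± 0.004 in HPC and 0.054 ± 0.001 in DMSO (exact permutation p = 0.00794, adjusted p = 0.00882 for each). TMSB4X stood at 1.43 ± 0.069 times ACTB in HPC and 1.32 ± 0.059 in DMSO. Its groups overlapped (exact permutation p = 0.0397, adjusted p = 0.0418), and the call was lost when any 1 of 8 libraries, HPC replicates 1, 2, 3 and 5 or DMSO replicates 1 to 4, was left out (adjusted p = 0.0501 to 0.1).

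**Figure D3:**
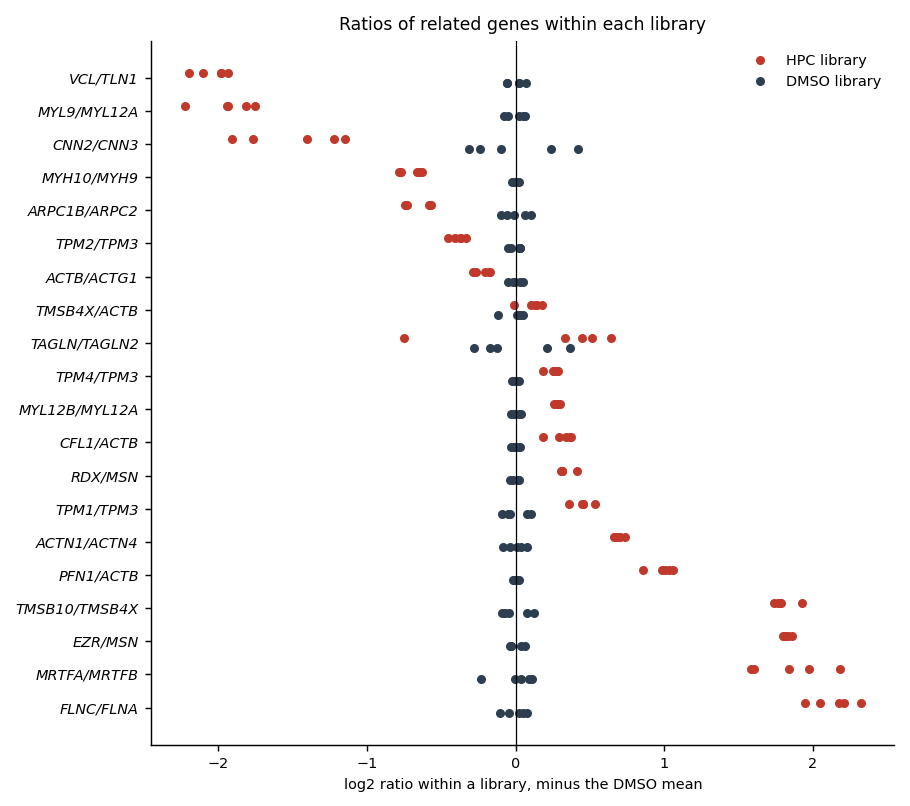
Ratio of 20 pairs of related genes within each library, as log2 minus the DMSO mean of that pair (x axis), with HPC libraries above DMSO libraries in each row. Ratios do not depend on how libraries are scaled. VCL/TLN1 is lowest at -2.04 and FLNC/FLNA highest at 2.14, and the points of TAGLN/TAGLN2 and TMSB4X/ACTB overlap.

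Of the 20 ratios, 19 passed at an adjusted p under 0.05, 12 higher and 7 lower in HPC, and 18 of these were at 0.00794, the smallest p that reassigning the 10 libraries can give. The 1 that did not pass was TAGLN to TAGLN2 (exact permutation p = 0.429), which rests on few TAGLN reads and passed as higher without HPC replicate 3 (log2 difference 0.48, adjusted p = 0.0334). The pairs were chosen with earlier results of these data known. Pairs of other genes were not tested, so no share over all pairs stands beside the count. Of all single genes tested, 87.7% were called and 79.6% had HPC and DMSO ranges apart.

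The 2 MRTF coactivators differed. MRTFB (chromosome 16, 14071321 to 14266773) had 0.247, 0.293, 0.300, 0.345 and 0.363 FPKM in HPC, against 1.06, 1.13, 1.14, 1.31 and 1.19 FPKM in DMSO, with a log2 fold change of -1.63 ± 0.082 (adjusted p = 3.61e-10). The voom test on its 686 or more reads per library gave -1.93. MRTFA had 0.502, 0.518, 0.482, 0.471 and 0.489 FPKM in HPC, against 0.476, 0.519, 0.546, 0.499 and 0.575 FPKM in DMSO. Its groups overlapped, and it did not pass the voom test (log2 fold change -0.09, adjusted p = 0.172). MRTFA stood at 4.44 ± 0.79 times MRTFB in HPC and at 1.23 ± 0.11 times in DMSO per kilobase of merged exons.

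Levels between genes are given in reads per kilobase of merged exons, scaled to library size, because the deposited FPKM divides by a length summed over all annotated transcripts of a gene, from 0.93 times the merged exons for TMSB10 to 8.14 times for ACTG1. On that scale the 4 highest genes in DMSO were TMSB4X (1096 ± 27 in HPC and 2190 ± 53 in DMSO), ACTB (769 ± 40 in HPC and 1656 ± 51 in DMSO), TMSB10 (2621 ± 141 in HPC and 1504 ± 72 in DMSO) and ACTG1 (636 ± 15 in HPC and 1174 ± 23 in DMSO). In HPC, TMSB10 led, and EZR, at 514 ± 9.7 in HPC and 168 ± 5.8 in DMSO, ranked next after ACTG1. PFN1 followed at 268 ± 4.9 in HPC and 291 ± 9.6 in DMSO. At the low end were MRTFB (0.753 ± 0.11 in HPC and 2.84 ± 0.22 in DMSO) and CNN3 (0.759 ± 0.22 in HPC and 0.617 ± 0.13 in DMSO), whose spreads overlap in HPC.

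**Figure D4:**
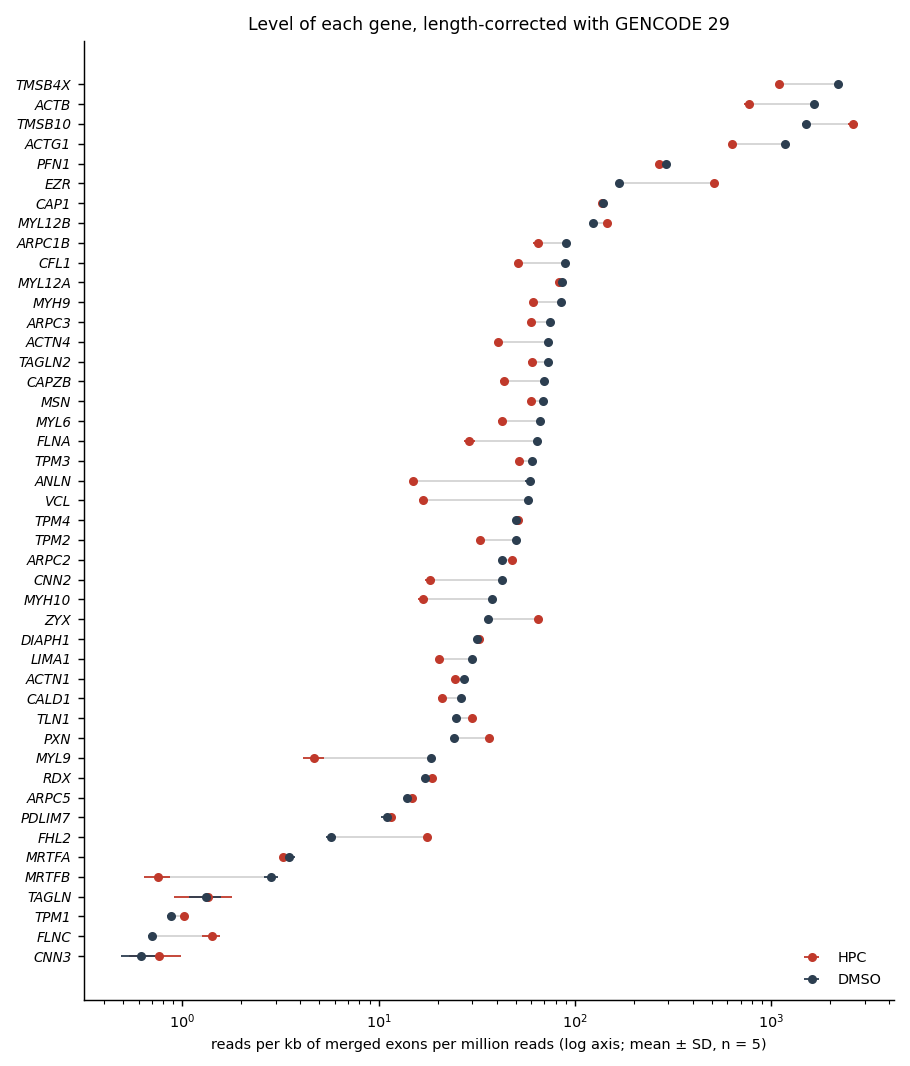
Level of each of the 45 genes in reads per kilobase of merged exons, scaled to library size (x axis, logarithmic), ordered by the DMSO mean. Points are means and bars SD of 5 libraries, joined by a line for each gene. TMSB10 and EZR move up the scale in HPC, while TMSB4X, ACTB and ACTG1 move down.

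Other genes of the same machinery were read as lists chosen by function, with earlier results of these data known, and no list was tested as a set. Beside the counts below, 42.9% of all genes tested rose and 44.8% fell. Of 26 tested focal adhesion genes outside the 45, GIT2 and GRB7 passed the filter only through DMSO, and of the other 24, 13 rose, 8 fell and 3 missed the threshold, with a median log2 fold change of 0.10. FERMT1, kindlin 1, an activator of integrins, rose by 1.30, and TNS3, tensin 3, which links integrins to actin, had a log2 fold change of -2.83. Of 13 further crosslinkers, PLS1 and UTRN passed the filter only through DMSO, and of the other 11, 9 fell and 2 rose (median -0.40), from PLEC, plectin, at -1.37 to SPTAN1, alpha spectrin, at 0.40. Of 14 further capping, severing and monomer-binding genes, 9 fell, 2 rose and 3 did not pass (median -0.21), with GSN, gelsolin, which severs and caps filaments, at 3.36 ± 0.18 FPKM in HPC and 26.4 ± 1.5 FPKM in DMSO (log2 fold change -2.94, adjusted p = 5.07e-15) and TWF1, twinfilin 1, at 0.26.

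Further nucleators were mixed, beside 42.9% of all genes tested that rose and 44.8% that fell. Of 19 further Arp2/3 subunits and activators, 11 fell, 7 rose and 1 did not pass (median -0.21), from CORO1C, a coronin, at -0.82 to ABI2, of the WAVE complex, at 0.75. Of 6 further formins and elongation factors, FHOD1 (log2 fold change -1.14) and SPIRE2 (-0.87) passed the filter only through DMSO, and of the other 4, 2 fell, 1 rose and 1 did not pass, with SPIRE1 at 1.22.

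SRF and targets of SRF and YAP outside the 45 made a list of mixed genes, immediate early genes included. Of its 14 tested genes, CCN2, FOS and F3 passed the filter only through HPC, so their rise was fixed by it. Of the other 11, SRF among them, 8 rose, 2 fell and 1 did not pass, with a median log2 fold change of 0.39, beside 42.9% of all genes tested that rose. The whole list was chosen with earlier results of these data known, so its counts are no independent reading. Without SRF, which was named after its value was seen, 7 of 10 rose, with a median of 0.37. SRF rose to 23.4 ± 0.68 FPKM in HPC, against 14.7 ± 0.43 FPKM in DMSO (log2 fold change 0.67, adjusted p = 6.41e-11). HBEGF, a growth factor of the EGF family, was at 22.9 ± 1.9 FPKM in HPC and 1.04 ± 0.19 FPKM in DMSO (log2 fold change 4.35, adjusted p = 1.31e-12), the largest rise on the log2(FPKM + 0.1) scale, while on recovered reads FOS had the larger voom value (4.58, against 4.48 for HBEGF). AMOTL2, a YAP-binding scaffold, fell by 0.58.

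Markers of other cell types were mostly low. Of 12 smooth muscle and fibroblast markers, ACTA2 alone passed the filter, at 2.7 ± 0.32 FPKM in HPC and 2.60 ± 0.078 FPKM in DMSO, and it missed the threshold. The voom test took 8 of the 12, of which 4 rose (LMOD1, CNN1, SMTN and PDGFRB), 2 fell (COL1A1 and COL3A1) and 2 did not pass. Over all genes in that test, 37.5% rose and 43.7% fell. LMOD1, leiomodin 1, was at 0.957 ± 0.13 FPKM in HPC and 0.166 ± 0.066 FPKM in DMSO (voom log2 fold change 2.58, adjusted p = 1.11e-09). The 12 summed to 4.19 to 4.61 FPKM in HPC and 3.37 to 3.58 FPKM in DMSO, and DCN and LUM had at most 1 read and ACTG2 at most 4 in any library. Their part in the differences of the 45 genes was not tested. The 6 blood and endothelial markers in the table summed to 8.38 to 11 FPKM in HPC and 4.30 to 5.34 FPKM in DMSO, mostly CD68, a lysosomal protein that is not limited to blood cells, at 9.77 ± 1.2 FPKM in HPC and 2.75 ± 0.36 FPKM in DMSO. CDH5, an endothelial cadherin, was at 0.012 ± 0.007 FPKM in HPC and 1.42 ± 0.042 FPKM in DMSO, while PTPRC and PECAM1 had at most 5 and 7 reads in any library. VIM, vimentin, the intermediate filament protein of mesenchymal-type cells, averaged 333 ± 9.7 FPKM in HPC and 695 ± 15 FPKM in DMSO, and KRT19 had a log2 fold change of -1.25.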

How the data were processed

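RNA from 10 libraries, 5 of HPC and 5 of DMSO, was measured after 24 h. Per the labels' protocols, poly(A) RNA was selected, fragmented and reverse-transcribed, and sequenced as paired-end reads. Tools in the submitters' processing notes are STAR 2.7.7a, fastp 0.23.2 and edgeR, and the build there is GRCh38.p13. The authors deposited 1 table of FPKM, and no source used here gives the read counter, its strand setting or the annotation. Antisense genes overlap an exon of 25 of the 45 genes, so their reads may be shared.

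The deposited FPKM values of 15208 genes above 0 in at least 3 libraries were whole multiples of 1 read within 0.0001. The implied length matched the sum over all GENCODE 29 transcripts of a gene within 5% for 88.8% of 15183 genes, against 8.06% for merged exons. It was longer than that sum for TPM3 (52776 bases, against 32956), TPM1 (51322, against 41955) and MRTFA (43493, against 32800). The levels of these genes, and their ratios as levels, rest on less certain lengths. The difference of a log2 ratio between groups does not depend on length. Plain FPKM folds of a gene do not depend on the implied length, but FPKM of different genes cannot be set side by side, so levels use merged exons. The 1 FPKM filter and the 0.1 FPKM added before the log do depend on it. MRTFB was at -1.63 in limma and -1.93 in voom. MRTFA, with at least 1351 reads per library and a length 6.66 times its merged exons, was below the filter. MYL9, with at least 756 reads and a length 1.35 times its merged exons, was tested.

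Genes that reached 1 FPKM in 5 or more libraries were compared on log2(FPKM + 0.1), which understates folds of low genes, with limma 3.58.1 in R 4.3.3 (trend and robust, two-sided). Ratios within a library were tested by exact permutation (two-sided, of the difference in mean log2 ratio), adjusted over 20 ratios. Voom used genes with at least 10 reads in at least 5 libraries. Gene roles, ratios and lists were chosen with earlier results of these data known. All 45 genes are named; values in every library are given for the most abundant gene and the largest rise and fall of each role, and for ACTB, ACTG1, VCL, FHL2, ANLN, MRTFA and MRTFB, and the largest rise and fall of each list are named, except that some results are not reported here. The procedure was tested on simulated data. FMN2, SCIN, TAGLN3, TMSB15A, CD3E and HBB were not analysed here. Alternatives changed the pseudocount, filter, scaling, variance model, test, block and libraries; equal reads outside mitochondrial genes was added after seeing the data. Computations used Python 3.11.15.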

Additional observations from a re-analysis of the deposited data

Results flagged for a closer look

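In 5 of 90 groups of 5 libraries, 1 library stood apart from the others of its group by Dixon's criterion, about the 1 in 20 that chance gives. ACTN1 was at 8.36 FPKM in HPC replicate 4, against 7.89 to 8.01 FPKM in the other HPC libraries. RDX was at 3.48 FPKM in the same replicate, against 3.27 to 3.32 FPKM. ARPC5 was at 10.8 FPKM in HPC replicate 5, against 10.4 FPKM in the others. FLNA was at 10.6 FPKM in DMSO replicate 1, against 11 to 11.1 FPKM, and FHL2 at 1.75 FPKM in DMSO replicate 4, against 1.95 to 2.02 FPKM. No call of these 5 genes was lost when that library was left out.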

How the results depend on the processing

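Over all alternatives, between 33 and 37 of these genes were called, 7 to 12 higher and 24 to 30 lower, with 37 to 45 of them tested. Most other genes were called too: 3805 of 4240 genes with a filter of 5 FPKM, and 11280 of 16734 with no filter. Without any 1 library, 34 to 36 were called, beside 7433 to 7717 calls among 8655 to 8867 genes. Some genes, 5 in all, turned sign with the FPKM sum outside mitochondrial genes: TPM4 (-0.14), PDLIM7 (-0.10), RDX (-0.041), ARPC5 (-0.080) and DIAPH1 (-0.13). TPM4 also turned with TPM rescaling (-0.0022). With that sum the median of all genes was -0.19, against -0.01 as deposited, and it turned no gene called past 1.5-fold. MRTFB was no longer tested when any DMSO library was left out or with a filter of 5 FPKM. The fit with the replicate number as a block gave the same counts, 35 called with 10 higher and 25 lower. It made 7969 calls over all genes, against 8021. Same-numbered libraries correlated at -0.059 to 0.199, and 2 of 5 HPC libraries correlated best with their own number. These values cannot settle whether the numbers pair the samples, and the labels do not say. Depth limits CNN3 and TAGLN most, whose lowest libraries had 97 and 178 reads.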
